A study of Mus musculus with 9 samples.

Results

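The genes of MHC class II antigen presentation described here were followed through the hypothalamus of mice that had received a Cre or a GFP virus: the invariant chain gene Cd74 and the class II chain genes H2-Ab1, H2-Aa and H2-Eb1. They are 4 of the 13588 entries of the expression table, matched by Ensembl identifier, and were singled out because their values were high in the AAV-Cre mice labelled obese. The levels in those mice, and every difference that involves them, are therefore descriptions without a test. All 9 mice were male C57/BL6 animals homozygous for a floxed Snord116 allele (Snord116tm1Uta/J), injected as adults into both sides of the mediobasal hypothalamus. AAV-GFP mice (n = 3) received an AAV7 that drives GFP from the CMV promoter, and AAV-Cre mice (n = 6) an AAV7 that drives Cre from the CAG promoter, so promoter and transgene differ together and Cre was not restricted to a cell type. By the study's methods the Cre vector was also injected at a higher titer than the GFP vector. The AAV-Cre mice are split by weight gain into 3 labelled obese and 3 labelled nonobese. The title of each AAV-Cre sample points to the opposite subset from its weight label, and the weight label is used for the names. Brains were frozen 10 weeks after injection, and a region was cut by laser from single sections and sequenced as 1 library per mouse. Cre staining of adjacent sections guided the region, and AAV-GFP mice gave matched regions. Mice that share a replicate number are different animals.

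MHC class II is a pair of membrane proteins, an alpha and a beta chain, that carries peptides from the endosome to the cell surface and shows them to CD4 T cells. The invariant chain occupies the peptide groove of new class II pairs and guides them to the endosome, where it is cut down by proteases and its last fragment is exchanged for peptide with the help of H2-DM. In the brain class II is found chiefly on border macrophages, dendritic cells, B cells and activated microglia, and its genes are switched on by the coactivator CIITA, itself induced by interferon gamma. CIITA does not bind DNA but docks on factors held at the X and Y boxes of class II promoters.

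Promoter sequences are shown because the class II genes were high in the same mice and these boxes are their best-known shared feature. The 250 bases before the start of H2-Aa, which encodes the class II A alpha chain (chr17:34287824-34288073, minus strand), and of H2-Eb1, which encodes the E beta chain (chr17:34305617-34305866, plus strand), are from RefSeq on GRCm38.p6 and run 5′ to 3′. Capitals mark the Y box core ATTGG and the X box core ACNGATG, searched on both strands, so that CCAAT and the reverse complement of the X core are also in capitals. By their letters the 2 cores cannot overlap.
H2-Aa: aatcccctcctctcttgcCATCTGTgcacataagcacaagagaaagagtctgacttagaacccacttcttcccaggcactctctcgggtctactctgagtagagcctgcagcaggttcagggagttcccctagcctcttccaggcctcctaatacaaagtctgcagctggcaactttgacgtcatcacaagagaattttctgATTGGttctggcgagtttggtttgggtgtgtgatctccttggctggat
H2-Eb1: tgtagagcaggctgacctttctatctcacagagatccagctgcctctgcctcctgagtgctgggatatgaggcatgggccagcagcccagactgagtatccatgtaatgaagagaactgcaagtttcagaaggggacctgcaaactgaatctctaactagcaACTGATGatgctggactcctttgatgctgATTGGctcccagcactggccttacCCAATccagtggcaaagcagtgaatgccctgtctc
H2-Aa had 1 Y core in the sense direction, starting 48 bases before the gene's start, and 1 match of the X core on the opposite strand. H2-Eb1 had a sense X core starting 88 bases before the start, then 22 bases, then a sense Y core starting 59 bases before the start, and a second Y core on the opposite strand. Over all 32851 promoters of the table, 33.8% held the Y core, 8.31% the X core, and 0.210% (69 promoters) an X core followed by a Y core within 30 bases on the same strand. Of 9 promoters listed for 8 class II genes, 8 held the Y core, 6 the X core and 4 the spaced pair (H2-Eb1, H2-DMb1, H2-DMb2 and H2-Eb2). These matches describe letters only and say nothing of binding. Boxes that depart from these exact letters are missed, so a promoter without the spaced pair, such as that of H2-Aa, may still hold both boxes. Nor does a match, such as the X core of H2-Aa on the opposite strand, show that the stretch is a working box.

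H2-Ab1 (ENSMUSG00000073421, plus strand, 6 exons), the A beta chain, spans chr17:34257689-34269419 of GRCm38. H2-Aa (ENSMUSG00000036594, minus strand, 5 exons) spans chr17:34282744-34287823, and H2-Eb1 (ENSMUSG00000060586, plus strand, 6 exons) spans chr17:34305867-34316674, so the 3 genes lie within 58986 bases. Cd74 (ENSMUSG00000024610, plus strand, 9 exons) lies elsewhere, at chr18:60803848-60812652. The antisense gene Gm20513 overlaps H2-Eb1, and the strand setting of the counting is not given in the sources used here, so reads of the 2 could be mixed. No 50-base window of the 4 mRNAs was shared with the transcripts of another gene in the annotation (0 of 1361 windows for Cd74, 1163 for H2-Ab1, 1079 for H2-Aa and 1620 for H2-Eb1).

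The deposited values are reads per gene scaled to library size, near the scale of CPM and here called signal, and the reads behind each value could be recovered exactly. Libraries held between 3929672 and 5766994 reads on listed entries, and 3 reads, taken as the smallest amount told from 0, equalled a signal between 0.525 and 0.786. Gfp was at 0 in the 6 AAV-Cre libraries and between 62.7 and 79.0 in the AAV-GFP libraries, and Cre was between 234.9 and 8557 in AAV-Cre libraries and at most 0.957 (5 reads) in AAV-GFP libraries. Snord116 itself was not analysed here. In bulk tissue, fewer cells of a type and less RNA per cell cannot be told apart, and this holds for every result that follows.

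Cd74, whose product chaperones class II in the endoplasmic reticulum and also serves as a receptor for the cytokine MIF, had the highest mean signal of the 4 genes in each group. In AAV-GFP mice its signal was 2.49, 4.79 and 2.72, from 10, 25 and 14 reads. In AAV-Cre mice labelled obese it was 1076, 9.53 and 1186, from 4783, 42 and 5104 reads. In those labelled nonobese it was 4.20, 1.31 and 1.92, from 24, 5 and 9 reads. Labelled obese replicates 1 and 3 therefore stood far above each of the other 7 mice, while replicate 2 of the same label was only modestly above the highest AAV-GFP mouse.

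H2-Ab1, the A beta chain, which is the main class II beta chain of this strain, followed the same order. Its signal was 0.249, 4.98 and 0.777 in AAV-GFP mice (1, 26 and 4 reads). It was 397.1, 5.67 and 411.9 in mice labelled obese (1765, 25 and 1773 reads). In mice labelled nonobese it was 2.62 in replicate 1 (15 reads) and had 0 reads in replicates 2 and 3. The labelled obese group lay above both other groups for Cd74 and H2-Ab1, but for H2-Ab1 replicate 2 of that group was close to AAV-GFP replicate 2.

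H2-Aa, the partner alpha chain of H2-Ab1, had signals of 0.748, 0.957 and 0 in AAV-GFP mice (3, 5 and 0 reads). In mice labelled obese they were 243.9, 0.227 and 235.8 (1084, 1 and 1015 reads), and in mice labelled nonobese 3.50, 0.262 and 0 (20, 1 and 0 reads). Here the labelled obese group overlapped both others, because replicate 2 had a single read. The next highest mouse after labelled obese replicates 1 and 3 was labelled nonobese replicate 1.

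H2-Eb1 encodes the beta chain of the class II E molecule, whose alpha chain this strain does not make. It had signals of 0.249, 0.383 and 0.971 in AAV-GFP mice (1, 2 and 5 reads). In mice labelled obese they were 190.1, 0 and 268.8 (845, 0 and 1157 reads), and in mice labelled nonobese 1.22, 0 and 0 (7, 0 and 0 reads). The pattern was that of H2-Aa, with replicates 1 and 3 of the labelled obese group high and replicate 2 at 0.

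**Figure D1:**
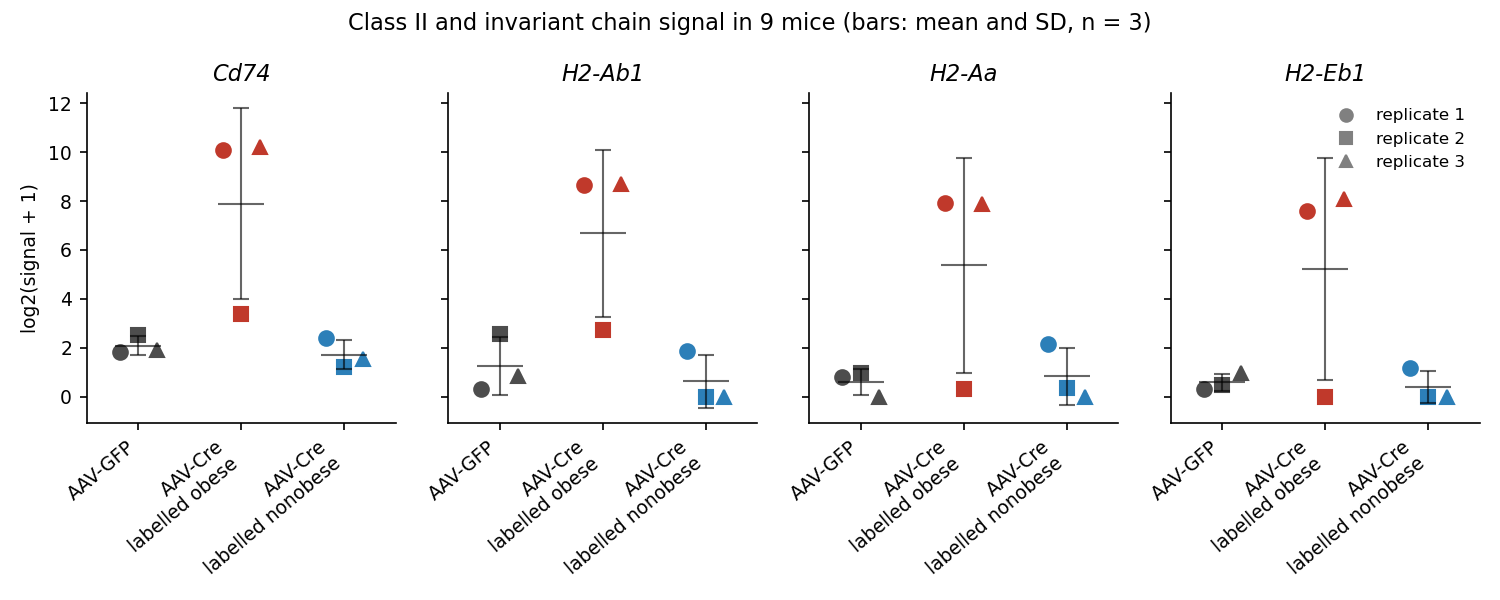
Signal of Cd74, H2-Ab1, H2-Aa and H2-Eb1 in each of 9 mice on the log2(signal + 1) scale (vertical axis), by group (horizontal axis). Each symbol is 1 mouse, and horizontal and vertical bars give the group mean and SD (n = 3). Labelled obese replicates 1 and 3 are high for all 4 genes, and labelled obese replicate 2 lies near the other groups.

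The mixture of the 4 genes was compared between the 2 high mice. In labelled obese replicates 1 and 3, Cd74 held 56.4% of the summed reads of the 4 genes in both mice (95% exact binomial confidence intervals 55.4 to 57.5% and 55.4 to 57.4%). H2-Ab1 held 20.8% and 19.6%, with overlapping intervals (20.0 to 21.7% and 18.8 to 20.4%). H2-Aa held 12.8% (12.1 to 13.5%) and 11.2% (10.6 to 11.9%), so its share was the larger in replicate 1. H2-Eb1 held 9.97% (9.34 to 10.6%) in replicate 1 and 12.8% (12.1 to 13.5%) in replicate 3, so its share was the larger in replicate 3. These intervals cover counting error only, as reads of amplified libraries are not independent molecules. As a ratio of replicate 3 to replicate 1, signal was 1.10 for Cd74 (95% interval 1.06 to 1.15), 1.04 for H2-Ab1 (0.971 to 1.11), 0.967 for H2-Aa (0.887 to 1.05) and 1.41 for H2-Eb1 (1.29 to 1.55). Apart from H2-Eb1, these 2 mice differed by at most 1.10-fold in the members. In the remaining 7 mice the 4 genes together had between 6 and 68 reads, too few for such shares.

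Set per kilobase of the principal annotated mRNA, which allows levels of different genes to be compared, Cd74 stood at 763 and 841 signal per kb in labelled obese replicates 1 and 3. H2-Ab1 followed with 328 and 340, H2-Aa with 216 and 209, and H2-Eb1 with 114 and 161. The invariant chain was thus the most abundant message, 2.33 and 2.47 times H2-Ab1 per kb, and the A alpha chain stood at 0.660 and 0.615 of its A beta partner. These ratios depend on the length used. Divided by all annotated exons, Cd74 was 4.14 and 4.40 times H2-Ab1, H2-Aa was 0.415 and 0.387 of H2-Ab1, and H2-Aa was 0.657 and 0.449 of H2-Eb1, so the order of the last pair turned. The summed reads of the 4 genes made up 0.195% and 0.219% of the 2 libraries, and at most 0.00147% of any other.

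The labelled obese mice gave fitted differences from AAV-GFP, in log2 fold change (log2 FC) of signal + 1, of 5.82 (SE 1.05) for Cd74, 5.44 (SE 1.10) for H2-Ab1, 4.78 (SE 1.31) for H2-Aa and 4.63 (SE 1.33) for H2-Eb1. Against the mice labelled nonobese the differences were 6.18, 6.07, 4.54 and 4.83 with the same SEs. These values chose the genes, and they are given as a description without a test. They come from limma, which draws each gene's variance toward that of genes of similar level. The SEs are those of a difference of means and do not measure the spread among mice. Among the 3 mice labelled obese the SD of log2(signal + 1) was 3.90 for Cd74, 3.42 for H2-Ab1, 4.40 for H2-Aa and 4.53 for H2-Eb1. For comparison, the median over the 13506 entries tested was a log2 FC of -0.036 against AAV-GFP and an SD of 0.533 within the labelled obese group.

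Spread among the mice labelled obese was wide for each of the 4 genes. Of the 13506 entries, 1 had a larger SD than H2-Eb1 among the mice labelled obese, 2 a larger SD than H2-Aa, 8 than Cd74 and 18 than H2-Ab1. Because the genes were picked for high values in this group, that rank is a description. Leaving out labelled obese replicate 2 raised the log2 FC of Cd74 against AAV-GFP to 8.07, and leaving out replicates 1 and 3 together lowered it to 1.32, a choice made after the values were seen. For H2-Ab1 the corresponding values were 7.42 and 1.50. Without either replicate 1 or replicate 3, H2-Aa and H2-Eb1 no longer met the filter for testing, which asked for 3 or more mice with a signal of 1 or above.

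All 4 genes passed that filter, but not on the same footing. Cd74 reached a signal of 1 in 9 mice and H2-Ab1 in 5, of which 1 was an AAV-GFP mouse. H2-Aa and H2-Eb1 each reached it in 3 mice, which were labelled obese replicates 1 and 3 and labelled nonobese replicate 1, and in 0 AAV-GFP mice. Groups without overlap were seen for 2 of 4 genes, Cd74 and H2-Ab1, both for labelled obese above AAV-GFP and for labelled obese above labelled nonobese. Over all entries the shares without overlap were 7.18% and 6.65%. In the same comparisons 0.422% and 0.733% of all entries were called higher, and 0.133% and 0.215% lower, at a false discovery rate (FDR) under 0.1 by limma with Benjamini-Hochberg adjustment. Since these contrasts chose the genes, nothing is read from either count.

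The comparison of mice labelled nonobese with AAV-GFP did not choose the genes, and it asks whether Cre injection without the obese label went with a change in class II. The log2 FC was -0.37 for Cd74 (95% interval -2.52 to 1.79), -0.62 for H2-Ab1 (-2.89 to 1.64), 0.24 for H2-Aa (-2.45 to 2.94) and -0.20 for H2-Eb1 (-2.94 to 2.53). H2-Ab1, H2-Aa and H2-Eb1 met the filter only with the labelled obese mice counted, so their values are descriptions. Cd74, which met it in every mouse, had an FDR of 0.999 by limma, and 0.0148% of all entries were called in this comparison. The tested entries include the virus genes Cre and Gfp, which differ between the groups by design. An exact 2-sided permutation test of 3 mice against 3 gave p = 0.4 for Cd74, but such a test cannot go below 0.1 and so could not pass 0.05. Groups overlapped for each of the 4 genes, and 5.15% of all entries had every nonobese mouse below every AAV-GFP mouse. These intervals rest on a variance shared by all 3 groups, so the spread of the mice labelled obese widens them. For Cd74 the SD of log2(signal + 1) was 3.90 in mice labelled obese, 0.397 in AAV-GFP mice and 0.603 in mice labelled nonobese. Fitted with the 2 compared groups alone, Cd74 had an FDR of 0.993 by limma. Changes within the intervals could not be told from 0 with this fit, and most of these mice had few reads of the 4 genes. The direction is not fixed either: H2-Aa turned to -0.052 without AAV-GFP replicate 3, and H2-Ab1 to 0.044 without AAV-GFP replicate 2.

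With both subsets averaged, all AAV-Cre mice against AAV-GFP gave log2 FCs of 2.73 (SE 0.906) for Cd74, 2.41 (SE 0.953) for H2-Ab1, 2.51 (SE 1.13) for H2-Aa and 2.21 (SE 1.15) for H2-Eb1. These differences also hold the mice that chose the genes and carry no test, and 0.0444% of all entries were called. Across the 6 AAV-Cre mice the signal of Cd74 ran from 1.31 to 1186 with a median of 6.87. The medians of the other genes were 4.15 for H2-Ab1, 1.88 for H2-Aa and 0.612 for H2-Eb1, all well under the means of 136, 80.6 and 76.7.

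**Figure D2:**
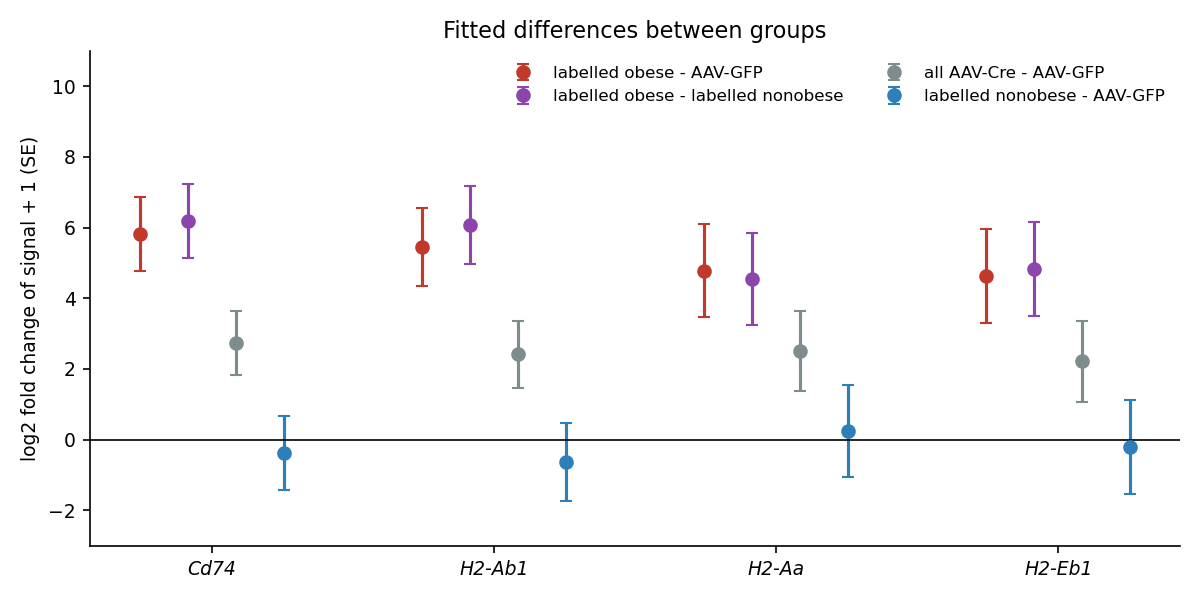
Fitted log2 fold changes of signal + 1 (vertical axis, bars are limma SEs) for the 4 genes (horizontal axis) in 4 comparisons of the same 9 mice. Differences of labelled obese mice from either other group lie between 4.54 and 6.18, those of all AAV-Cre mice from AAV-GFP between 2.21 and 2.73, and those of labelled nonobese mice against AAV-GFP lie between -0.62 and 0.24.

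The wider class II pathway was taken as 48 genes in 8 lists by role, members left out, of which 39 were in the table and 37 were tested. The 37 include H2-DMb2, Cd86, Cd3e and Trbc2, which met the filter only with the labelled obese mice counted. Against AAV-GFP, 3 of the 37 rose in mice labelled obese (Ctss, Irf1 and Cd44, 8.11% of those tested beside 0.422% of all entries). Of the 37, 0 fell, and of 16 genes with an unadjusted p under 0.05, 0 were lower. Against the mice labelled nonobese, 4 of 37 rose (the same 3 genes and Ctsz, 10.8% beside 0.733%) and 0 fell, with 2 lower at an unadjusted p under 0.05. DESeq2 and the 2 tests of edgeR gave between 3 and 10 genes in these comparisons, of which 0 were lower. The median log2 FC over the 37 genes was 0.83 and 0.98, beside -0.036 and -0.017 over all entries. The calls rest on the same mice as the members: without labelled obese replicate 1 or without replicate 3 the counts were 0 and 0, and without replicate 2 they were 13 and 20, of which 0 and 1 were lower. AAV-GFP replicates 1 and 3 each lowered the first count, to 0 and 1. Without a variance trend both were 0.

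Proteases and other enzymes that cut the invariant chain and antigens in the endosome were tested for 9 of 9 genes. Ctss, the protease that trims the invariant chain to its last fragment in professional presenting cells, had signals of 67.6, 74.1 and 70.5 in AAV-GFP mice. In mice labelled obese they were 669, 103 and 803, and in mice labelled nonobese 95.7, 62.3 and 52.9. Its log2 FC against AAV-GFP was 2.42 (SE 0.439, FDR = 0.0119 by limma). Unlike the members, Ctss had a solid level in every control mouse. Ctsz, an exopeptidase, passed the test in the comparison of the 2 AAV-Cre subsets (log2 FC 3.05, SE 0.804), where labelled nonobese replicate 2 had 0 reads, and its log2 FC against AAV-GFP was 1.75 (FDR = 0.467). The lysosomal protease Ctsb, not called, had a log2 FC of 0.83 against AAV-GFP (FDR = 0.171). Ifi30, a thiol reductase that opens disulfide bonds of antigens, was at 22.3, 2.04 and 36.7 in mice labelled obese and at most 5.36 in AAV-GFP mice, and was not called (log2 FC 2.33, FDR = 0.406).

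Of the class II transcription list, 8 of 8 genes were tested and 0 were called by limma in any comparison of these 2, with 4 and 2 genes at an unadjusted p under 0.05. Ciita, the coactivator, was covered by 2, 8 and 1 reads in the AAV-GFP group. The labelled obese group gave 85, 3 and 205 reads, and those labelled nonobese 11, 2 and 6. Its reads were thus highest in the same mice as class II, labelled obese replicates 1 and 3, but the log2 FC of 2.83 (SE 1.03) did not pass (FDR = 0.319). The X box factor genes Rfx5, Rfxap and Rfxank had log2 FCs of 1.11, 0.42 and 0.11, and the Y box factor genes Nfya, Nfyb and Nfyc 1.26, 1.03 and 0.14, with no call. Nfya did not follow the members, with signals of 33.1, 35.4 and 28.3 in the 3 mice labelled obese.

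Interferon gamma acts through its receptor and the kinases JAK1 and JAK2, and the transcription factor IRF1, itself induced, acts on the Ciita gene. Irf1 rose in labelled obese mice by a log2 FC of 3.10 (SE 0.713, FDR = 0.0563 by limma), from signals of 6.98, 2.68 and 10.1 to 154, 15.4 and 79.7. It was again highest in replicates 1 and 3, and replicate 2 was also above the 6 mice of the other groups. The receptor and kinase genes were not called: the log2 FC was 0.46 for Ifngr1, -0.29 for Ifngr2, 0.23 for Jak1 and 0.53 for Jak2.

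H2-DM, which loads peptides onto class II, is encoded by H2-DMa with H2-DMb1 or H2-DMb2. H2-DMa had 37, 54 and 34 reads in AAV-GFP mice, 152, 2 and 197 in mice labelled obese, and 24, 5 and 1 in mice labelled nonobese. The AAV-GFP signals of 6.60 to 10.3 thus lay below labelled obese replicates 1 and 3 and above the other 4 AAV-Cre mice, and the log2 FC against AAV-GFP was 0.48 (SE 0.968, FDR = 0.911). H2-DMb1 had 84 and 41 reads in labelled obese replicates 1 and 3 and at most 1 read elsewhere, and did not pass the filter. H2-DMb2 had a log2 FC of 1.40 (FDR = 0.694), a description, as it met the filter only with the labelled obese mice counted. H2-DMb1 and H2-DMb2 share 27.2% and 32.8% of their 50-base windows with other genes, so their separate values are uncertain. The ligases that remove class II from the surface, March1 and March8, and Cd83, which protects it, were tested for 3 of 3 genes with 0 called in either comparison and 0 and 1 at an unadjusted p under 0.05.

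Costimulatory and T cell genes, the partners of class II at the contact with a CD4 T cell, were sparse. Cd86 was covered by 51, 0 and 78 reads in the labelled obese group and by 0, 11 and 0 in AAV-GFP, with a log2 FC of 2.09 (FDR = 0.546). Cd3e, a chain of the T cell receptor complex, gave 129, 0 and 43 reads in the labelled obese group, 0, 6 and 0 in AAV-GFP and 0 in the 3 mice labelled nonobese (log2 FC 2.42, FDR = 0.473). Lag3, a class II receptor of activated T cells, gave 125, 8 and 213 reads in the labelled obese group and 27, 7 and 1 in AAV-GFP (log2 FC 2.53, FDR = 0.376). These 3 were high in replicates 1 and 3 without passing the test. Trbc2, a T cell receptor constant segment, differed in that its signals of 9.45, 7.04 and 7.43 were alike in the 3 mice labelled obese. They were 0, 0.574 and 0 in AAV-GFP mice (log2 FC 2.94, FDR = 0.223) and 4.72, 0 and 1.49 in mice labelled nonobese. Cd86, Cd3e and Trbc2 met the filter only with the labelled obese mice counted, so their fold changes and FDRs are descriptions. Of 4 genes of the MIF axis, 3 were tested. Cd44, the signalling partner of CD74 at the cell surface, rose in mice labelled obese with signals of 58.0, 24.1 and 46.0, against 0.997, 7.28 and 2.14 in AAV-GFP mice (log2 FC 3.46, SE 0.762, FDR = 0.0482). Labelled obese replicate 2 was also above the 6 mice of the other groups. Mif, the ligand, had a log2 FC of -0.37 (FDR = 0.816).

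In mice labelled nonobese, 0 of the 37 pathway genes were called against AAV-GFP by limma, 0 had an unadjusted p under 0.05, and 0 were called by edgeR or DESeq2. The median log2 FC was -0.11. In all AAV-Cre mice against AAV-GFP, 0 of 37 were called by limma, edgeR or DESeq2, and 7 had an unadjusted p under 0.05. Without labelled obese replicate 2, 3 were called by limma.

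**Figure D3:**
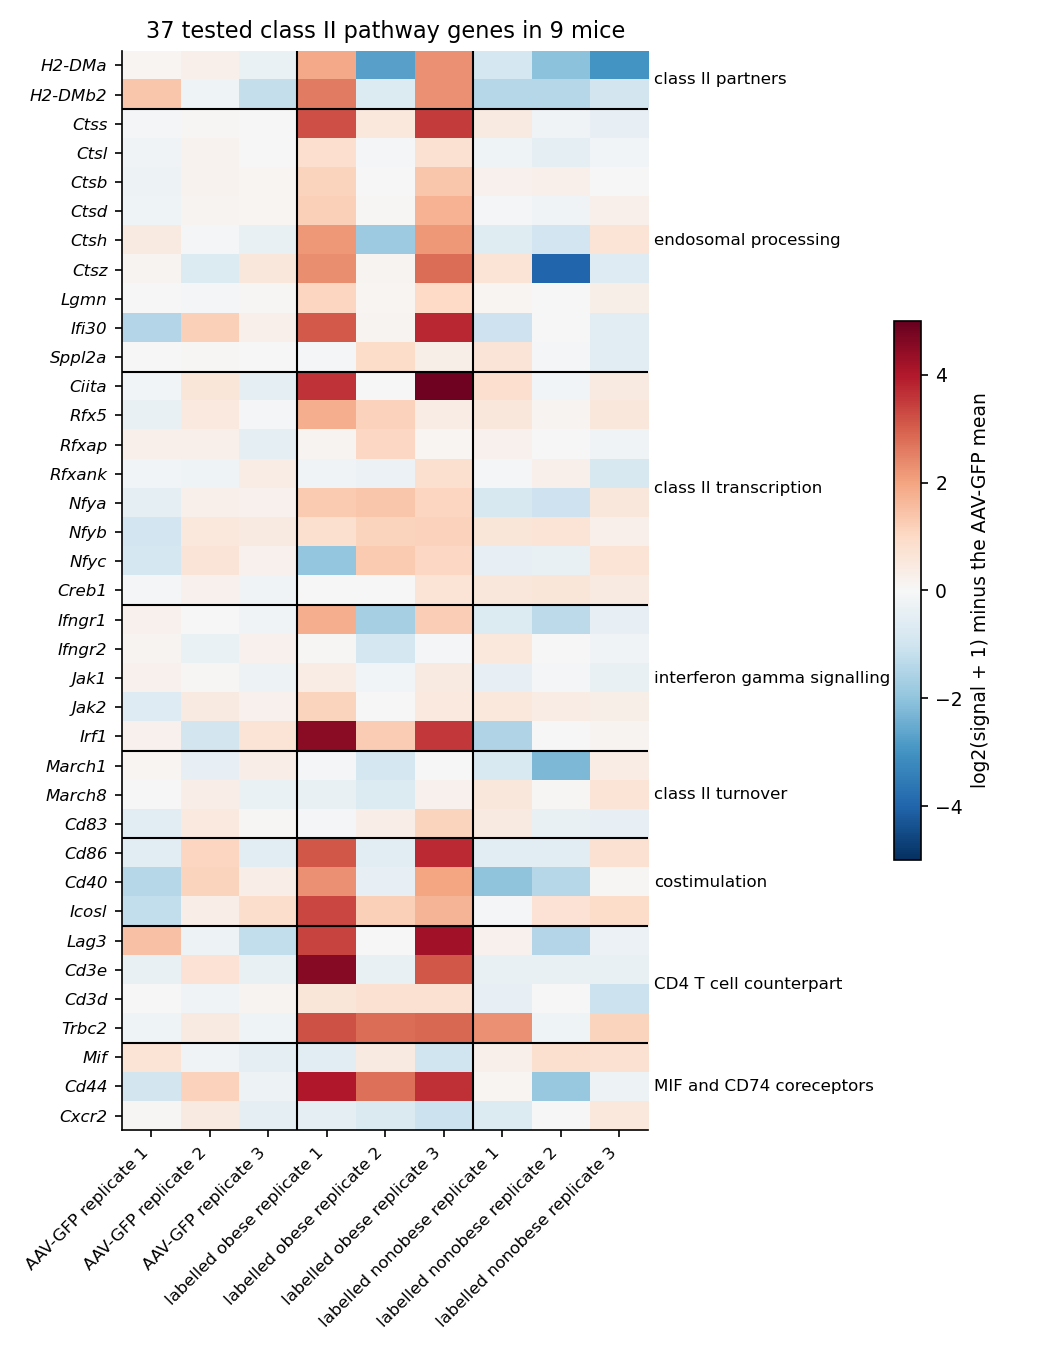
Heat map of the 37 tested pathway genes (rows, grouped by role) in 9 mice (columns). Color gives log2(signal + 1) minus the AAV-GFP mean of the gene, red higher and blue lower. Ctss, Ciita, Irf1, Lag3, Cd86 and Cd3e are red in labelled obese replicates 1 and 3. Cd44 and Trbc2 are also red in labelled obese replicate 2, where Irf1 is more faintly red.

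Other properties of the libraries moved with class II. Labelled obese replicates 1 and 3, with summed member signals of 1907 and 2102, had the lowest Cre of the 6 AAV-Cre mice, at 1330 and 234.9. The other 4 AAV-Cre mice had Cre between 4644 and 8557 and summed member signals between 1.57 and 15.4. Of 6 mediobasal hypothalamus markers, Nr5a1 and Agrp were at 0 in those 2 libraries. Nr5a1 was also at 0 in AAV-GFP replicate 3 and labelled nonobese replicate 3, whereas Agrp was between 2.33 and 17.8 elsewhere. Cartpt, at 138.8 and 186.3, was not low there, with 59.1 to 164.1 in the other 7 mice. Pomc was 36.0 and 4.65 there, against 8.16 to 100.5 in the others. Npy was 44.3 and 18.4 against 21.8 to 93.2, and Nkx2-1 11.9 and 7.43 against 11.1 to 35.7. These 3 genes lay within the range of the others in labelled obese replicate 1 and below it in labelled obese replicate 3. The neuronal gene Snap25 was 638 and 590 in the 2 libraries and between 830 and 1147 in the others. Gfap, the intermediate filament of astrocytes, was 369 and 640 there and between 10.1 and 129.8 in the others. The part of the captured area, of Cre dose and of glial content in the class II values was not tested.

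**Figure D4:**
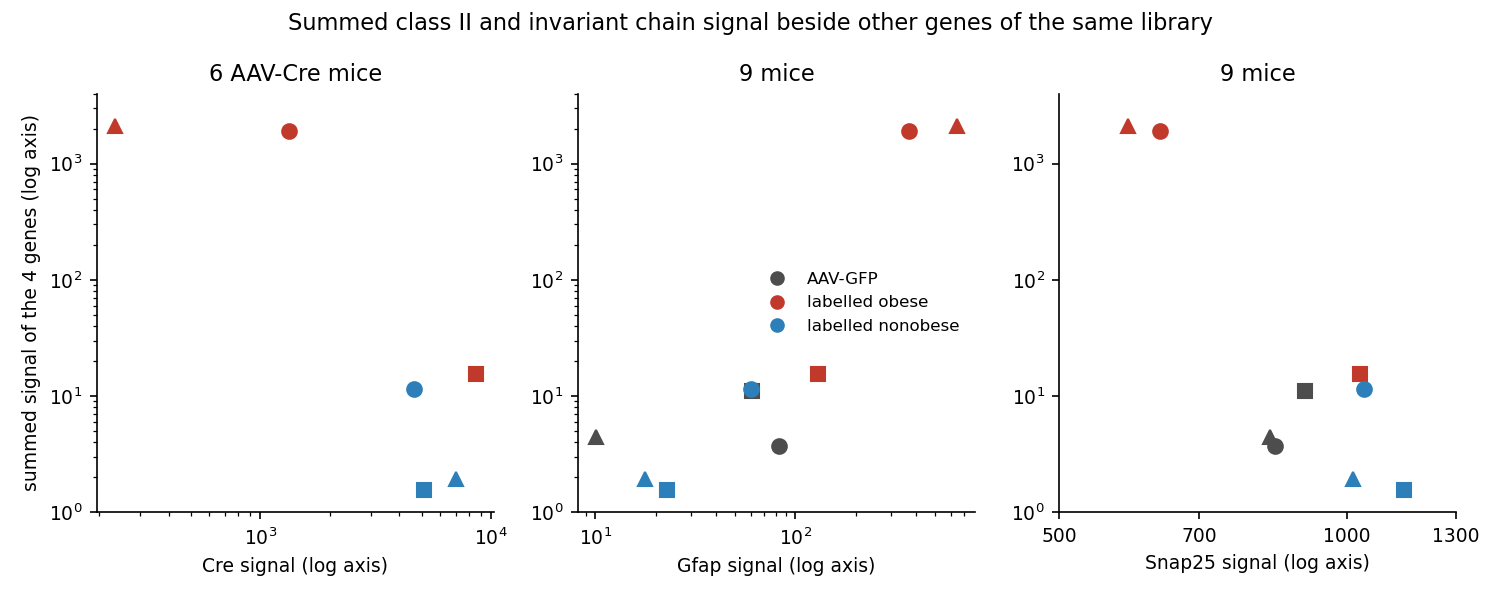
Summed signal of Cd74, H2-Ab1, H2-Aa and H2-Eb1 (vertical log axes) against the signal of Cre, Gfap and Snap25 (horizontal log axes), 1 symbol per mouse, colored by group, with circles, squares and triangles for replicates 1, 2 and 3. The 2 mice with summed member signals of 1907 and 2102 have the lowest Cre of the 6 AAV-Cre mice, and the lowest Snap25 and highest Gfap of all 9 mice.

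Markers of cells that carry class II were summed per library. For microglia, 5 of 5 markers were in the table and their sum was 66.6 to 89.5 in AAV-GFP mice, 111 to 225 in mice labelled obese and 61.5 to 72.3 in mice labelled nonobese. The sum of 111 was that of labelled obese replicate 2, where Siglech alone gave 54.2 and each other marker was below the highest AAV-GFP mouse. The microglial markers did not move as 1 group. Cx3cr1 and Tmem119 were higher in labelled obese replicates 1 and 3 than in the other 7 mice, whereas P2ry12 was within the range of the others (5.12 to 20.7) and Siglech (5.62 and 2.56 against 3.20 to 54.2) within or below it. For border macrophages (4 of 6) the ranges were 4.27 to 30.2, 20.9 to 59.2 and 4.91 to 22.3. Cd163 was at 0 in all 3 mice labelled obese, in AAV-GFP replicate 3 and in labelled nonobese replicate 3. Mrc1 was 20.5, 17.9 and 11.6 in mice labelled obese, above every mouse of the other groups. Ms4a7 was higher in labelled obese replicates 1 and 3 than in the other 7 mice. F13a1 was highest in labelled obese replicate 3 and at 0 in labelled obese replicates 1 and 2 and labelled nonobese replicate 2. For dendritic cells (3 of 7) the ranges were 13.2 to 15.1, 31.0 to 43.1 and 12.6 to 32.2. For B cells (2 of 6) they were 4.02 to 6.23, 5.90 to 23.7 and 1.05 to 2.56, where Cd79a was at 0 in 7 mice and had 44 and 55 reads in labelled obese replicates 1 and 3. For monocytes only Ly6c2 of 4 markers was in the table, at 0 in all AAV-GFP and labelled nonobese mice and between 0 and 34.0 in mice labelled obese.

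Of the plasma cell markers, 5 of 5 were in the table, and they summed to 1.75 to 8.43 in AAV-GFP mice, 76.0 to 4902 in mice labelled obese and 29.9 to 44.2 in mice labelled nonobese. Jchain and Igkc, which encode the antibody joining chain and kappa constant region, rose in mice labelled obese (2 of 4 tested markers, limma, beside 0.422% of all entries). The same 2 genes were called in all AAV-Cre mice against AAV-GFP. In mice labelled nonobese Igkc was at 18.5, 24.9 and 30.5, against 0 to 1.50 in AAV-GFP mice, and was not called. Of 3 astrocyte markers 2, Aqp4 and Gfap, rose as well, and their list summed to 501 to 585, 696 to 1440 and 461 to 637 in the 3 groups. Endothelial markers (3 of 3) summed to 49.6 to 73.0, 86.7 to 114.8 and 54.2 to 72.8, neuronal markers (3 of 3) to 1430 to 1569, 1074 to 1703 and 1688 to 1859, and mediobasal hypothalamus markers (6 of 6) to 120 to 435, 217 to 354 and 151 to 404. Jchain, Igkc, Aqp4 and Gfap were the only markers of these lists that limma called for labelled obese against AAV-GFP. The part of any of these cells in the class II values was not tested.

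The class II genes lie among other immune genes of chromosome 17. Within 250000 bases on either side of the 3 genes there were 22 other protein-coding genes, of which 14 were in the table and 13 were tested. Psmb8, an immunoproteasome subunit, was the 1 called higher in mice labelled obese against AAV-GFP, with signals of 109, 12.5 and 143 against 2.74, 6.13 and 1.55 (log2 FC 3.87, SE 0.767, FDR = 0.0224 by limma). Its neighbours Tap1 and Psmb9, also of the class I pathway, had log2 FCs of 3.49 and 3.42 and were not called (FDR = 0.135 and 0.277). Psmb9 met the filter only with the labelled obese mice counted, so its values are descriptions. Brd2, a chromatin reader that lies between class II genes, had signals of 136 to 139 in AAV-GFP mice and 208, 156 and 212 in mice labelled obese (log2 FC 0.47, FDR = 0.392). The median log2 FC of the 13 neighbours was 0.79, and Slc39a7 and Rxrb were at -0.44 and -0.24.

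**Figure D5:**
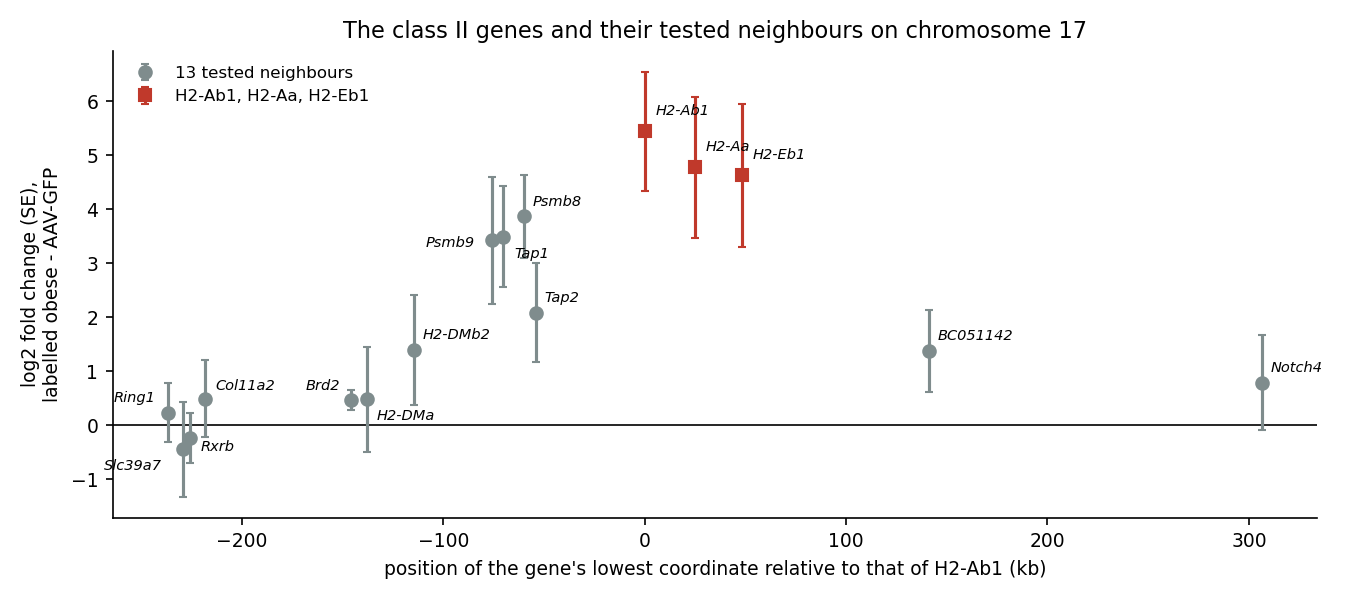
Log2 fold change of labelled obese mice against AAV-GFP (vertical axis, bars are SEs) for H2-Ab1, H2-Aa and H2-Eb1 and their 13 tested neighbours, by position relative to H2-Ab1 in kilobases (horizontal axis). The 3 class II genes lie between 4.63 and 5.44, Psmb8 at 3.87, and Brd2, Ring1, Rxrb and Slc39a7 between -0.44 and 0.47.

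The members resembled each other closely across the 9 mice, with Pearson's r between 0.955 (H2-Ab1 and H2-Eb1) and 0.988 (Cd74 and H2-Ab1) on the log2(signal + 1) scale. Among the other entries reported here, the 10 whose pattern was most like the mean of the 4 genes were Ctss (r = 0.995), C1qc (0.990), Gimap4 (0.990), Rrbp1 (0.984), H2-D1 (0.984), Gm12250 (0.983), B2m (0.976), Atf3 (0.974), Ptprc (0.974) and Rab32 (0.973). They include class I genes (H2-D1 and B2m), a complement gene of microglia (C1qc), and the pan-leukocyte phosphatase gene Ptprc. C1qc had signals of 195, 16.6 and 189 in mice labelled obese and 19.4 to 21.1 in AAV-GFP mice, and Ptprc 58.0, 3.63 and 58.8 against 2.99 to 4.02. B2m, the light chain of class I, had 1068, 84.4 and 1153 in mice labelled obese against 44.9 to 86.9 in AAV-GFP mice. In all, 202 entries (1.50%) had r above 0.9 and 69 (0.511%) above 0.95. These correlations are descriptions over 9 libraries that share 2 high ones, labelled obese replicates 1 and 3, and any entry high in both resembles the members.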

How the data were processed

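RNA of laser-captured mediobasal hypothalamus was sequenced from 9 mice (3 per group), 1 library each. According to the methods and the submitters' processing notes, reads were mapped to GRCm38 with TopHat2 2.0.11, and HTSeq, edgeR and limma were used. Strand setting and low-count filter are not given in the sources used here. The authors deposited signal, that is, reads over a TMM-scaled library size on a CPM-like scale. All values (100%) came out whole, within a tolerance of 0.01, when divided by the signal that 1 read is worth, which gave the reads.

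From these values log2(signal + 1) was fitted with limma 3.58.1 (R 4.3.3), all 3 groups together with a variance trend, over 13506 entries that reached a signal of 1 in 3 or more libraries, with Benjamini-Hochberg adjustment and calls at FDR under 0.1. Log2 fold changes on this scale understate the change of low genes. The design assumed CPM-like values, and the same test was used for signal. Exact permutation tests used scipy 1.17.1. Read counts recovered from the signal were tested with edgeR 4.0.16 and DESeq2 1.42.0 as alternatives. Other alternatives were pseudocounts of 0.1 and 5, other filters, centring, no trend, the groups compared alone, a replicate block, an FDR under 0.05 and leaving out each mouse. The procedure was tested on simulated data. Symbols matched 13446 of 13586 Ensembl identifiers, and gene models are from GENCODE M21.

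Some items are not reported here, and the lists were counted without them. The members and lists were chosen with earlier results of these data known. Named are the members, genes of the role lists (those called and up to 4 others per list), Cre and Gfp, and the 10 entries most correlated with the members. Genes of the neighbourhood and of marker lists were named after their values were seen.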

Additional observations from a re-analysis of the deposited data

Results flagged for a closer look

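A set of 4 pathway genes differed between the AAV-Cre subsets, which is the difference between the effects of the subsets against the same AAV-GFP mice, by limma at an FDR under 0.1. The log2 fold change of mice labelled obese minus mice labelled nonobese was 4.15 for Cd44, 2.47 for Ctss, 3.05 for Ctsz and 3.57 for Irf1. For Cd44, Ctss and Irf1, 3 of 3 mice labelled obese were above every mouse labelled nonobese. For Ctsz, labelled obese replicate 2 was at 16.3, under labelled nonobese replicate 1 at 24.0. These genes carry no adjustment over the list, and the mice are those whose class II level chose the members.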

How the results depend on the processing

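Counts of called entries moved with most settings. For mice labelled obese against AAV-GFP, 75 entries (57 higher, 18 lower) became 34 with a pseudocount of 0.1, 143 with a pseudocount of 5, 5 without the variance trend, 257 with edgeR's likelihood ratio test, 275 with DESeq2, 36 at an FDR under 0.05 and 44 (3 higher, 41 lower) without both labelled obese replicates 1 and 3. That last choice was made after seeing the data, and it assumes that the lone mouse left varies like the other groups. For mice labelled obese against those labelled nonobese, 128 entries became, in the same order, 70, 214, 15, 397, 389, 68 and 72 (1 higher, 71 lower), and 64 when those groups alone were fitted. The 3 pathway genes called against AAV-GFP became 1 with a pseudocount of 0.1, 0 without the trend, 7 with the likelihood ratio test, 7 with DESeq2, 5 with a replicate block and 0 without both replicates. The 4 called against labelled nonobese became 0 without the trend, 10 with the likelihood ratio test, 10 with DESeq2 and 0 without both replicates. For mice labelled nonobese against AAV-GFP, 2 entries became 1 with a pseudocount of 0.1 and 6 with the likelihood ratio test. For all AAV-Cre mice, 6 entries became 2 without the trend, 3 when fitted as 1 AAV-Cre group, 14 with the likelihood ratio test and 10 with DESeq2. The cause was not tested.

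Leaving out each mouse in turn gave 8 to 7.1e+02 entries (rounded) and 0 to 13 pathway genes for labelled obese against AAV-GFP, where each of the 3 AAV-GFP and 3 labelled obese mice moved the entries by over 1.5 times, AAV-GFP replicate 1 to the lowest and labelled obese replicate 2 to the highest count. It gave 2 to 906 entries and 0 to 20 pathway genes for labelled obese against labelled nonobese, moved by over 1.5 times by AAV-GFP replicate 1 and by each of the 6 AAV-Cre mice, with the highest count without labelled obese replicate 2 and the lowest without replicate 1. It gave 1 to 3 entries for labelled nonobese against AAV-GFP, and 1 when any AAV-GFP mouse was left out. Gfp, a tested entry, reached a signal of 1 in the 3 AAV-GFP mice only, so without any of these Gfp missed the filter. For all AAV-Cre mice, leaving out each mouse gave 3 (without AAV-GFP replicate 1) to 77 entries and 0 to 3 pathway genes (both without labelled obese replicate 2). With 1 mouse left out, in labelled nonobese against AAV-GFP, the log2 fold change of H2-Aa ran from -0.052 to 0.66 and that of H2-Ab1 from -1.24 to 0.044, each turning sign once, without AAV-GFP replicate 3 for H2-Aa and without AAV-GFP replicate 2 for H2-Ab1. Cd74 was not called there under any setting run. Differences of the members that involve mice labelled obese kept a positive sign under every setting run, and H2-Aa and H2-Eb1 could not be fitted with a filter at a signal of 5, nor without labelled obese replicate 1 or 3 or labelled nonobese replicate 1.

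With the replicate number as a block, 200 entries and 5 pathway genes were called for labelled obese against AAV-GFP and 271 entries for labelled obese against labelled nonobese, and the other counts stayed within a factor of 1.5. Deviations from the group means correlated between -0.02 and 0.09 for same-numbered mice of different groups. For differently numbered mice they correlated between -0.088 and 0.040. By the study's methods the AAV-GFP controls were matched by region, and whether the numbers follow that matching was not tested. With 3 mice a group, few reads in 7 of 9 libraries and 2 libraries that decide the high values, levels in the low mice cannot be ordered.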
